A study of Mus musculus with 9 samples.

Results

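Glycolysis splits glucose into pyruvate, and the pentose phosphate pathway branches off its first product. The genes described here are the listed 36 members of these pathways, namely glucose transporters, enzymes of glycolysis, lactate dehydrogenases and lactate transporters, a subunit of pyruvate dehydrogenase and the kinases that switch it off, and enzymes of the pentose phosphate pathway. They were given as a list of names, and all 36 were found among the 26214 genes of the deposited table. Their levels were compared between adipose stromal cells (ASC), fibro-adipogenic progenitors of muscle (FAP), FAPs of injured muscle and cells sorted with CD31 and CD45.

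Glucose enters a cell through transporters of the SLC2A family and is trapped by hexokinase, and phosphofructokinase then commits it to glycolysis. Pyruvate is either reduced to lactate, which leaves the cell through monocarboxylate transporters, or passed into mitochondria by pyruvate dehydrogenase, which PDK kinases inactivate. The pentose phosphate pathway yields NADPH and ribose phosphate, the sugar of nucleotides, and several steps of glycolysis exist as isozymes, of which muscle fibres use a set of their own.

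RNA was sequenced from Sca-1+ stromal cells of male C57Bl/6J mice aged 8 to 12 weeks, 1 day after an injection into the quadriceps. ASC libraries (3) came from subcutaneous adipose tissue and FAP libraries (2) from quadriceps, both after NaCl, which served as the control injection. Injured FAP libraries (3) came from quadriceps after glycerol, an agent that damages muscle fibres, and 1 library held CD31+CD45+ cells of glycerol-injected quadriceps. For ASC and FAP samples, cells with CD31 or CD45 on their surface were depleted before a magnetic sort for Sca-1, and the libraries are described as made from a pool of cells of 3 animals. Whether libraries of a group came from separate pools or from 1 shared pool is not clear from this description, so their spread may not include the spread between animals. Every value given is a normalised read count, that is, the reads on a gene divided by 1 size factor for its library. Reads on genes numbered 27481573, 27349184 and 27402102 in ASC, 24052508 and 24164447 in FAP, 26968235, 26698572 and 27028114 in injured FAP, and 13091077 in the CD31+CD45+ library. The whole-transcriptome Pearson correlation of log2 values was 0.975 to 0.985 within ASC, 0.985 within FAP and 0.990 to 0.994 within injured FAP.

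The labels were first checked against marker genes. Pdgfra, a defining receptor of mesenchymal progenitors, had values of 10837 to 15083 in ASC, 17754 and 17757 in FAP, 23236 to 25268 in injured FAP and 119 in the CD31+CD45+ library. Not all of the 10 mesenchymal markers had this order: 7 were higher and 0 lower in ASC than in FAP, and 1 was higher and 7 lower in injured FAP than in FAP. Ly6a, the gene of the sort marker Sca-1, had 46513, 49855 and 36777 in ASC, 16542 and 10823 in FAP, 24309, 21308 and 24855 in injured FAP and 17672 in the CD31+CD45+ library, and so did not tell that library from FAP. Summed over 14 endothelial genes, the gene of CD31 among them, values reached 436847 in the CD31+CD45+ library, against 2138 to 7797 in the other 8 libraries. Over 15 leukocyte genes the sum was 428 to 532 in ASC, 292 and 546 in FAP, 765, 3415 and 657 in injured FAP 1, 2 and 3, and 34725 for the CD31+CD45+ cells. Injured FAP 2 thus stood apart in leukocyte genes, with Lyz2 as the most abundant of them at 725, and ASC 1 stood apart among ASC libraries for several members described below. Without injured FAP 2, 17, 25 and 19 members were called in the comparisons of ASC with FAP, injured FAP with FAP and injured FAP with ASC. Without ASC 1 these counts were 18, 26 and 20, against 17, 26 and 18 with all libraries. Each library is a bulk measurement, in which fewer cells of a type and less RNA per cell cannot be told apart.

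Of the 36 members, 34 had a mean value of at least 10 over the 8 stromal libraries (those of ASC, FAP and injured FAP) and were tested with limma, and Aldoc and Pgam2 did not reach it. A gene was called higher or lower at a Benjamini-Hochberg adjusted p under 0.05 over all 13601 genes tested together with a log2 fold change above 0.58 or below -0.58. In ASC against FAP, which compares the tissues of origin, 17 of 34 members were called, where 47.2% of all genes tested were called. Of these, 12 members were higher and 5 lower, against 23.4% and 23.8% of all genes, so that the total share of members called was near the background. In injured FAP against FAP, which compares glycerol with NaCl in muscle, 26 of 34 members were called, 19 of them higher and 7 lower, against 52.6%, 24.9% and 27.7% of all genes. In injured FAP against ASC, 18 of 34 members were called, 12 higher and 6 lower, against 50.8%, 25.0% and 25.8% of all genes, again a total near the background. The median log2 fold change of the 34 members was 0.24 in ASC against FAP, 0.65 in injured FAP against FAP and 0.28 in injured FAP against ASC, where the median of all genes tested was 0.00, -0.05 and 0.02. The 3 comparisons share their libraries in pairs and are given side by side. Scaling every library to an equal total moved the median of all genes by -0.56, 0.13 and 0.69 in the 3 comparisons. Under that scaling 4 members were higher and 12 lower in ASC against FAP, and 22 were higher and 3 lower in injured FAP against ASC, while among all genes 20.1% and 81.4% of calls were higher, against 49.6% and 49.3% under the deposited scaling. A common 75th percentile moved the median of all genes by -0.17, -0.05 and 0.12. The direction of no called member changed under any scaling tried, and the calls that a scaling ended are named beside the genes.

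**Figure D1:**
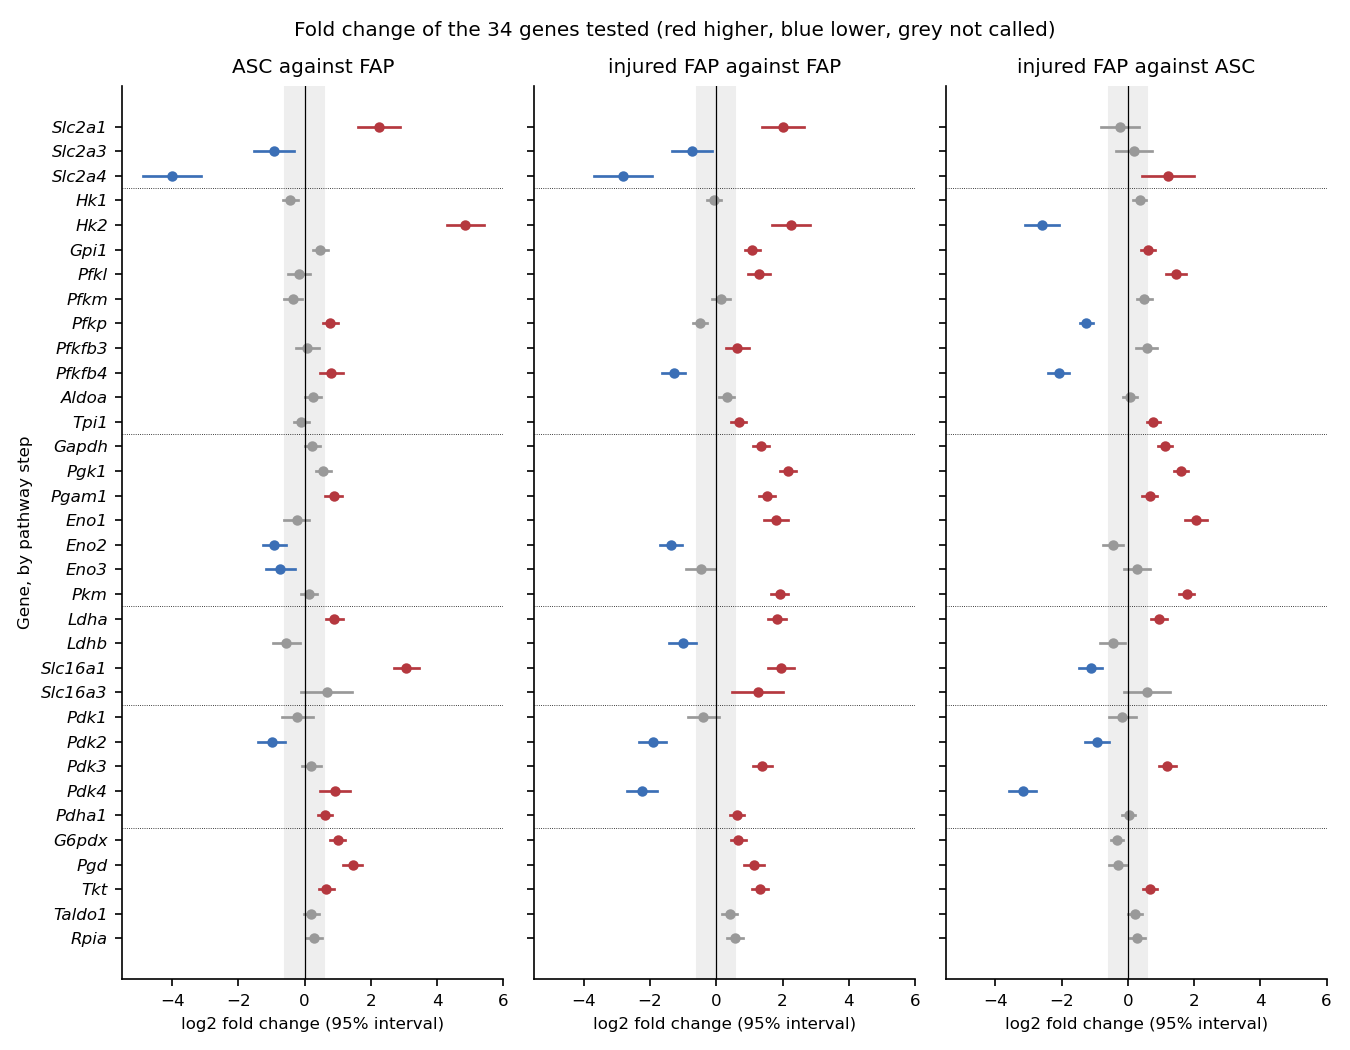
Points give the log2 fold change of the 34 members tested in each comparison and lines the 95% interval, with the shaded band marking fold changes within 0.58 of 0. In injured FAP against FAP 19 members were called higher (red) and 7 lower (blue), with the lower glycolysis genes from Gapdh to Pkm mostly to the right.

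The members together took 0.361%, 0.313% and 0.295% of the reads in ASC, 0.240% and 0.232% in FAP, 0.572%, 0.585% and 0.591% in injured FAP and 0.324% in the CD31+CD45+ library. The share was thus highest in every injured FAP library and lowest in both FAP libraries, and this order does not depend on the scaling between libraries. Members of lower glycolysis, the steps from Gapdh to Pkm, took 0.221% to 0.229% of the reads in injured FAP, 0.0387% to 0.0534% in ASC, and 0.0616% and 0.0590% in FAP. Upper glycolysis took 0.160% to 0.214% in ASC, 0.177% to 0.179% in injured FAP, and 0.106% and 0.103% in FAP. The shares of upper glycolysis thus overlapped between ASC and injured FAP, whereas those of lower glycolysis set injured FAP apart from both other groups. Under the deposited scaling the sums of upper glycolysis did not overlap, at 49530 to 77449 in ASC and 36651 to 37874 in injured FAP. Those of lower glycolysis still set injured FAP apart, at 46797 to 47310 against at most 16537 in ASC and FAP. Per kb of exon and under the deposited scaling, the highest group mean was that of Hk2 in ASC, at 5762, followed there by Aldoa at 4014. In injured FAP, Pkm at 5495 per kb, Ldha at 4449 and Aldoa at 4188 were the most abundant members, and in FAP Aldoa at 3382 was followed by Pkm at 1464. These ranks between genes depend on the exon lengths used. Values of members that share sequence with other genes, such as Gapdh and Pgk1, are uncertain, as given below. The rank of Hk2 in ASC above Pkm in injured FAP depends on ASC 1 and on the scaling. Hk2 had a value of 49869.9 in ASC 1, against 22008 and 31300.2 in the other ASC libraries.

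**Figure D2:**
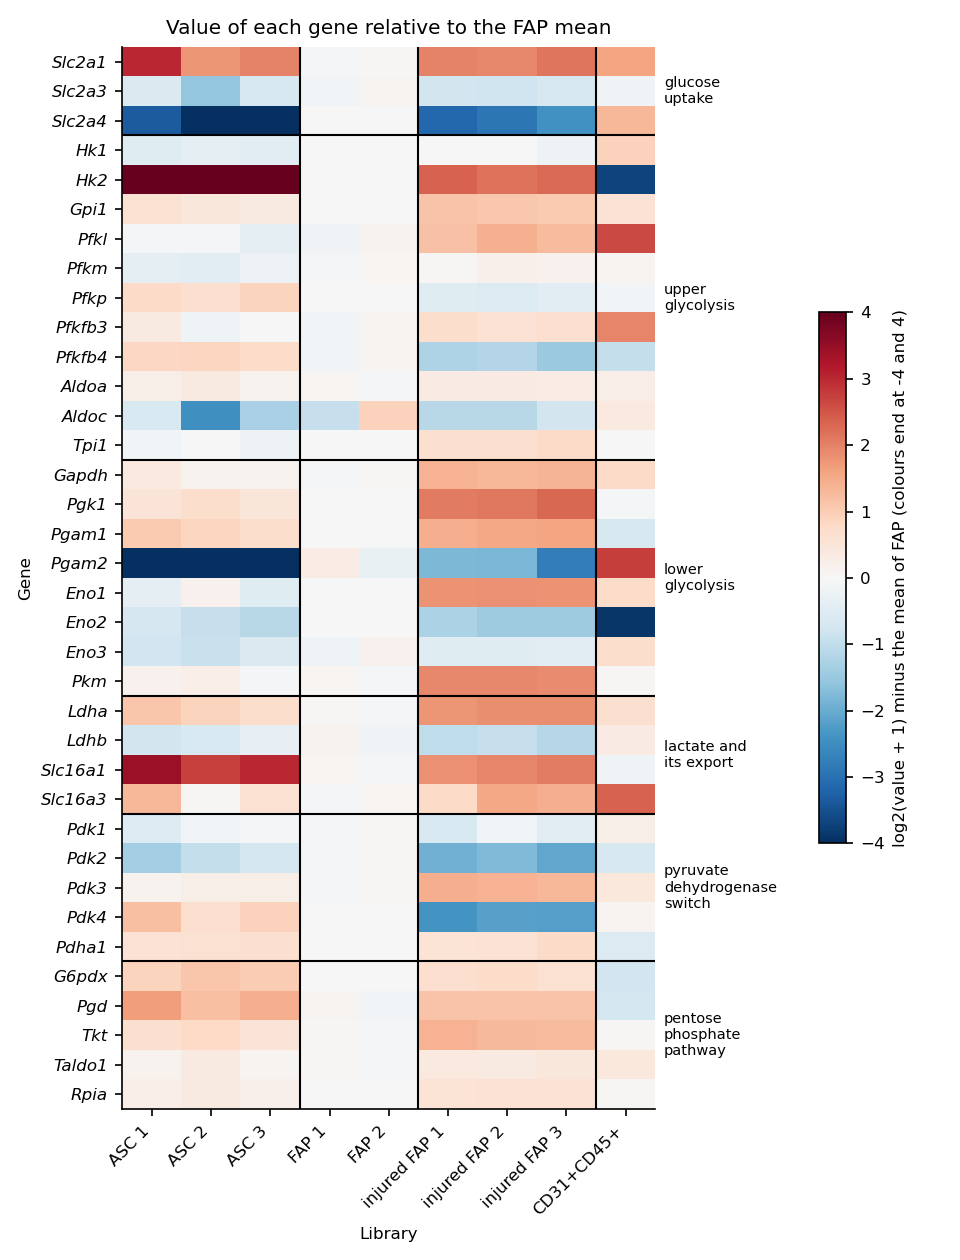
Colours give log2 of each value plus 1 relative to the FAP mean for the 36 members (vertical axis, by pathway step) in the 9 libraries (horizontal axis). Of the 8 genes from Gapdh to Pkm, Gapdh, Pgk1, Pgam1, Eno1 and Pkm are red in the 3 injured FAP libraries and Pgam2, Eno2 and Eno3 are blue, and Hk2 and Slc16a1 are darkest in the 3 ASC libraries.

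Promoters of the members were read from RefSeq (GRCm38.p6), as windows from 250 bases before to 50 bases after each annotated start. Of the 36 members, 34 had a window in the table and Slc2a3 and Slc2a4 had none. The letters ACGTG, the core of the hypoxia response element, were searched on both strands, and they are also part of CACGTG, the E-box bound by MYC and by the carbohydrate response factor MLXIPL. ACGTG occurred in a window of 17 of the 34 members (50%), compared with 28.9% of the 10751 genes tested that had a window and 21.8% of the 27025 genes of the promoter table. CACGTG occurred for 5 of the 34 members (14.7%), compared with 11.5% of the genes tested and 8.09% of the table. A gene with more windows has more chances of a match, and the members had 49 windows, the genes tested 13766. Counted by window, ACGTG occurred in 40.8% of those of members and 24.9% of those of the genes tested, and CACGTG in 10.2% and 9.65%. By pathway step, ACGTG was found for Slc2a1 as the 1 transporter with a window, 6 of 11 members of upper glycolysis, 4 of 8 of lower glycolysis, 3 of 4 of lactate and its export, 2 of 5 of the pyruvate dehydrogenase switch and 1 of 5 of the pentose phosphate pathway. A match is a description of the letters and was not tested as a binding site.

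The promoter windows of 5 members are shown, since these members were all higher in injured FAP than in FAP, span the pathway from glucose uptake to lactate export and hold the motif. They were chosen after their values were seen. Of the other members called higher in injured FAP than in FAP, Gpi1, Pfkl, Tpi1, Eno1, Pdha1, Pgd and Tkt held no ACGTG. Pdk2, which was called lower there, held it, as did Hk1, Pfkm and Aldoa, which were not called. Capitals mark ACGTG on either strand (CACGT is its reverse complement), and sequences run 5′ to 3′ in the direction of the gene. The regions in GRCm38.p6 were chr4:119108495-119108794 on the plus strand for Slc2a1, chr6:82774405-82774704 on the minus strand for Hk2, chrX:106186850-106187149 on the plus strand for Pgk1, chr7:46845554-46845853 on the plus strand for Ldha and chr3:104638414-104638713 on the plus strand for Slc16a1. Ldha held 5 matches, which included 2 copies of CACGTG, Slc16a1 held 3 with 1 CACGTG, Hk2 and Pgk1 held 2 each, and Slc2a1 held 1. Each CACGTG reads the same on both strands and counts here as 2 overlapping matches, 1 per strand, so matches are not separate sites. A further window of Ldha, at chr7:46846832-46847131, held 0 matches and is not shown.
Slc2a1: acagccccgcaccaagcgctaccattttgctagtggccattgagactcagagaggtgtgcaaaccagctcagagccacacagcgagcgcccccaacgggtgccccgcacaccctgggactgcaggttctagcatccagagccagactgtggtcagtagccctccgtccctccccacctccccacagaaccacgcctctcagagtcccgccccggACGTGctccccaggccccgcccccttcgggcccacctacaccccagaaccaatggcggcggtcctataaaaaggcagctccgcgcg
Hk2: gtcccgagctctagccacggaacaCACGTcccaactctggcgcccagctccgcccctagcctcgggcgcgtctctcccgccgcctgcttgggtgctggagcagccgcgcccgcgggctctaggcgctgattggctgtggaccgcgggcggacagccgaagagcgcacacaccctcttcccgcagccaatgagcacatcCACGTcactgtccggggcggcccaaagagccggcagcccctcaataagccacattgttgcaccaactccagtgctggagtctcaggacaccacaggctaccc
Pgk1: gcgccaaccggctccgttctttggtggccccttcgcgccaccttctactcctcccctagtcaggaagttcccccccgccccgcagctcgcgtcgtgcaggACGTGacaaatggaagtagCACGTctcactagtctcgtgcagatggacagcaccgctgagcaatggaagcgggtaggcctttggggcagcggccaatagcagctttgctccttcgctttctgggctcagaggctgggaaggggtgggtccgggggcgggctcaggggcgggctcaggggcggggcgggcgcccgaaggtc
Ldha: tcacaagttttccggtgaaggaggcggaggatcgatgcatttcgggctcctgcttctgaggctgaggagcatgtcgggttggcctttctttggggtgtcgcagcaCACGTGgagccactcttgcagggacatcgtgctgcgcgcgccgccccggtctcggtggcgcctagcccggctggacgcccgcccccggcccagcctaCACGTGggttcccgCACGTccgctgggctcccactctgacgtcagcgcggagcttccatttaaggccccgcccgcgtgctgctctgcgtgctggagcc
Slc16a1: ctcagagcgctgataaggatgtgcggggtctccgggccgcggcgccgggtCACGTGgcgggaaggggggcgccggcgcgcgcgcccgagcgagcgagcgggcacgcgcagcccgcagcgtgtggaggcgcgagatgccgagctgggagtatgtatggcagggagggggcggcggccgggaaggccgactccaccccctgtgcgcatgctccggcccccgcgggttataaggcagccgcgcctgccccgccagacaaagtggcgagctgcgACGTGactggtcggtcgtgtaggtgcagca

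The RNA of the 3 glucose transporters was found in every library, with Slc2a1 as the largest share per kb in each. ASC had 1 transporter higher and 2 lower than FAP, injured FAP 1 higher and 2 lower than FAP, and injured FAP 1 higher and 0 lower than ASC, and with equal totals these counts were 1 and 2, 1 and 1, and 2 and 0. Slc2a1 encodes GLUT1, the transporter of basal glucose uptake, and had values of 4296, 1828 and 2117 in ASC, 521 and 549 in FAP, 2121, 2020.4 and 2367 in injured FAP and 1615 in the CD31+CD45+ library. Both FAP libraries lay below every other library, ASC and injured FAP overlapped, and ASC 1 lay above both other ASC libraries. The log2 fold change was 2.25 (SE 0.28, limma adjusted p 8.26e-05) in ASC against FAP and 2.01 (SE 0.28, limma adjusted p 0.000141) in injured FAP against FAP. ASC and injured FAP were not separated by the test, with a log2 difference of -0.24 that became 0.14 without ASC 1. Slc2a4 encodes GLUT4, the insulin-responsive transporter of muscle and fat, and had 15.8, 6.80 and 7.53 in ASC, 167 in each FAP library, 18.05, 21.7 and 30.5 in injured FAP and 419 in the CD31+CD45+ library. FAP was thus high, the CD31+CD45+ library higher still, and the 3 stromal groups did not overlap. Slc2a4 fell by 4.02 on the log2 scale (SE 0.39, limma adjusted p 1.41e-05) in ASC against FAP and by 2.81 (SE 0.39, limma adjusted p 0.000131) in injured FAP against FAP. It was also higher in injured FAP than in ASC by 1.20 (SE 0.35, limma adjusted p 0.0117). That call was lost without injured FAP 3, when the difference was 1.00 and the limma adjusted p 0.056. Slc2a3, the gene of the high-affinity transporter GLUT3, had 149, 74.8 and 142 in ASC, 206 and 236 in FAP, 132, 128 and 140.3 in injured FAP and 199 in the CD31+CD45+ library. FAP lay above the other groups without overlap, by a log2 fold change of -0.92 (SE 0.27, limma adjusted p 0.0141) in ASC and -0.72 (SE 0.27, limma adjusted p 0.0373) in injured FAP. The call in ASC was lost without FAP 2, at -0.82, and under quantile normalisation, at -0.65. The call in injured FAP was lost on leaving out FAP 1, FAP 2, injured FAP 1, injured FAP 2 or injured FAP 3, at -0.82, -0.63, -0.72, -0.69 and -0.76, and also under quantile normalisation and equal totals, at -0.65 and -0.59. Without a filter on low values it was lost at -0.72, with a limma adjusted p of 0.0574. All of these changes of Slc2a3 passed the fold threshold, so that the calls were lost on the adjusted p.

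Markers of muscle cells moved with Slc2a4. The summed value of 15 muscle fibre genes was 245, 189 and 252 in ASC, 1111 and 1256 in FAP, 374, 405 and 308 in injured FAP and 4779 in the CD31+CD45+ library, with Acta1 or Tnnt3 the most abundant in each. Of the 12 fibre genes tested, 10 were lower in ASC and 9 lower in injured FAP than FAP, with 0 higher in either. In FAP 1 and FAP 2 none of the 15 was at 0, whereas Myh1, Myh2, Tnni2 and Pvalb were at 0 in ASC 1, Myh2, Myh4 and Tnnc2 in ASC 3 and Ttn in injured FAP 3. The summed value of 9 smooth muscle and pericyte genes was 14199.8, 10733 and 11719 in ASC, 34507 and 30816 in FAP, 16499.8, 16303 and 16102 in injured FAP and 94682 in the CD31+CD45+ library. Pdgfrb was the most abundant of these 9 in the 8 stromal libraries and Rgs5 in the CD31+CD45+ library, none was at 0, and 8 of 9 were lower than FAP in ASC and 8 of 9 in injured FAP. Slc2a4 and both lists had the same order of groups, with the CD31+CD45+ library above FAP and FAP above injured FAP and ASC. Single markers of other cell types had this order too. Among them were Lipe (adipocyte), Cdh5, Flt1 and Tie1 (endothelial), Itga7 and Pax7 (satellite cell) and Sox10 (Schwann cell). The summed values of the lists for these other cell types did not have it, as ASC overlapped or exceeded FAP there. The part of muscle fibre, smooth muscle, pericyte or other cells' RNA in the level of Slc2a4 was not tested.

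**Figure D3:**
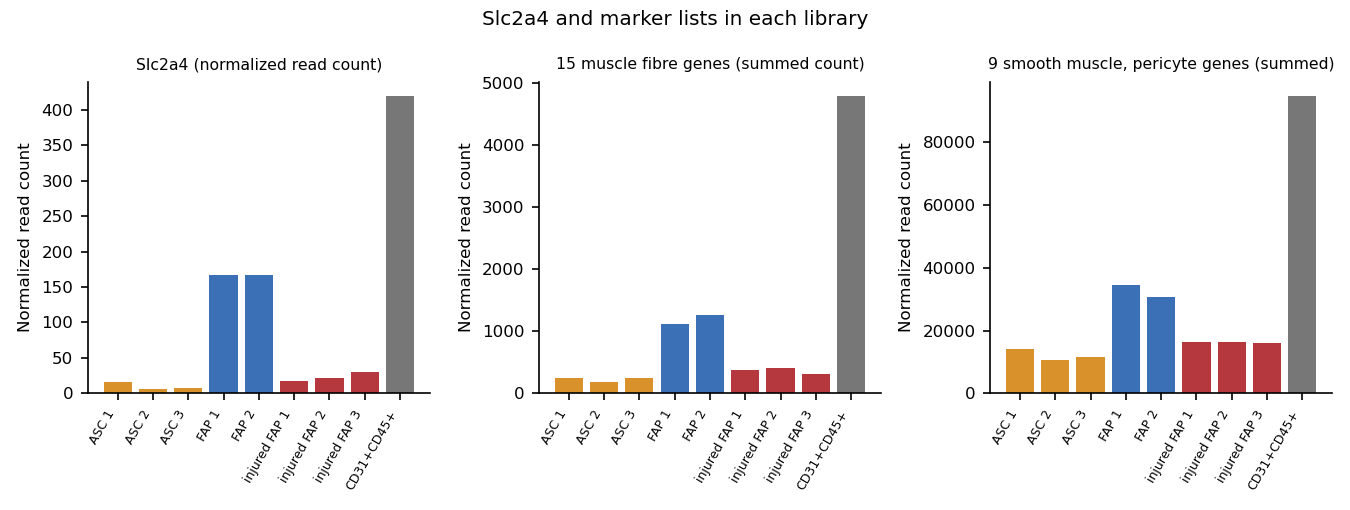
Bars give the normalised read count of Slc2a4, the summed count of 15 muscle fibre genes and the summed count of 9 smooth muscle and pericyte genes in each of the 9 libraries. In all 3 panels the CD31+CD45+ library is highest and both FAP libraries lie above the ASC and injured FAP libraries.

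Upper glycolysis runs from hexokinase to triose phosphate isomerase, and 3 of its 10 members tested were higher and 0 lower in ASC than in FAP. Injured FAP had 5 members higher and 1 lower than FAP, and 3 higher and 3 lower than ASC. Equal totals turned the count for ASC against FAP to 1 higher and 4 lower, and that for injured FAP against ASC to 7 higher and 2 lower, while injured FAP against FAP kept 5 and 1. Hk2, the inducible hexokinase of insulin-responsive tissue, had values of 49869.9, 22008 and 31300.2 in ASC, 1126 and 1123 in FAP, 5718, 5089 and 5423 in injured FAP and 86.3 in the CD31+CD45+ library. The 4 groups did not overlap, ASC was the highest, and ASC 1 exceeded both other ASC libraries. The log2 fold change of Hk2 was 4.85 (SE 0.26, limma adjusted p 2.72e-07) in ASC against FAP, 2.26 (SE 0.26, limma adjusted p 3.18e-05) in injured FAP against FAP and -2.59 (SE 0.23, limma adjusted p 4.40e-06) in injured FAP against ASC. Hk1, the widely expressed hexokinase, had 1717, 1838 and 1789 in ASC, 2392 and 2406 in FAP, 2407, 2359 and 2089.8 in injured FAP and 4517 in the CD31+CD45+ library, and it was called in none of the comparisons. Its log2 fold change of -0.43 in ASC against FAP passed the fold threshold under quantile normalisation, equal totals and a common 75th percentile, where it fell by 0.74, 1.00 and 0.60. Gpi1, which turns glucose 6-phosphate into fructose 6-phosphate, had 6175 to 7261 in ASC, 4711 and 4842 in FAP and 9774 to 10588 in injured FAP. It was higher in injured FAP than in FAP by 1.08 on the log2 scale and than in ASC by 0.61, and the latter was no longer called without ASC 3 (0.56) or injured FAP 1 (0.58).

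Phosphofructokinase has 3 isozyme genes, named for liver, muscle and platelet, and their tests differed. Pfkl had values of 258, 263 and 212 in ASC, 249 and 301 in FAP, 618, 736 and 664 in injured FAP and 1725 in the CD31+CD45+ library. ASC and FAP overlapped, and every injured FAP library was above both. For Pfkl the difference was 1.29 (SE 0.15, limma adjusted p 3.93e-05) in injured FAP against FAP and 1.46 (SE 0.14, limma adjusted p 5.92e-06) against ASC. Pfkp had 3091, 2870.0 and 3327 in ASC, 1801 and 1805 in FAP, 1285, 1245 and 1341 in injured FAP and 1684 in the CD31+CD45+ library, so that among the 3 stromal groups injured FAP was highest for Pfkl and lowest for Pfkp. It was higher in ASC than in FAP by 0.78 (SE 0.10, limma adjusted p 7.21e-05) and lower in injured FAP than in ASC, at -1.26 (SE 0.09, limma adjusted p 7.22e-07). The call in ASC against FAP was lost under quantile normalisation (0.43) and equal totals (0.21), and the call against ASC under equal totals (-0.56). The change of -0.48 in injured FAP against FAP did not pass the fold threshold and became -0.62 under quantile normalisation. Pfkm was called in no comparison, with values of 433 to 502 in ASC, 561 and 625 in FAP, 617 to 678 in injured FAP and 643 in the CD31+CD45+ library. Pfkfb3 and Pfkfb4 encode enzymes that set the level of fructose 2,6-bisphosphate, the activator of phosphofructokinase. Pfkfb4 had 411, 420.2 and 392 in ASC, 216 and 252 in FAP, 99.6, 104 and 83.1 in injured FAP and 119 in the CD31+CD45+ library, without overlap between the 3 groups. It was higher in ASC than in FAP by 0.80 (SE 0.16, limma adjusted p 0.00139), and lower in injured FAP than in FAP, at -1.29 (SE 0.16, limma adjusted p 5.21e-05), and than in ASC, at -2.09 (SE 0.14, limma adjusted p 6.48e-07). The first of these calls was lost under equal totals, at 0.24. Pfkfb3 went the other way in injured FAP, with 701, 481 and 549 in ASC, 505 and 581 in FAP, 873, 804 and 857 in injured FAP and 2123 in the CD31+CD45+ library. It was called only in injured FAP against FAP, at 0.64 (SE 0.16, limma adjusted p 0.00444), which was lost without FAP 1 (0.54) and under quantile normalisation (0.57). Against ASC it was 0.57 and passed the threshold without ASC 1 (0.71) or injured FAP 2 (0.60).

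Aldoa, the main aldolase, had 10904 to 12514 in ASC, 9219.8 and 10470.3 in FAP, 12044 to 12275 in injured FAP and 11873 in the CD31+CD45+ library and was called in no comparison. Quantile normalisation and equal totals brought it past the threshold in injured FAP against ASC, at 0.69 and 0.76. Tpi1, which interconverts the triose phosphates, was higher in injured FAP (3385 to 3731) than in FAP (2178 and 2211) by 0.67 and than in ASC (1916 to 2206) by 0.77 on the log2 scale, and the former was lost under quantile normalisation at 0.58. Aldoc, the brain-type aldolase, had values of 0 to 9.41 in the 9 libraries and was not tested.

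Lower glycolysis, in which ATP is made, had 5 of 7 members tested higher and 1 lower in injured FAP than in FAP, and 5 higher and 0 lower than in ASC. Between ASC and FAP 1 member was higher and 2 were lower in ASC. With equal totals these counts were 5 and 1, 6 and 0, and 0 and 3. Pgk1 encodes phosphoglycerate kinase and had values of 1392, 1568 and 1373 in ASC, 981 and 964 in FAP, 4130.2, 4207 and 4772 in injured FAP and 951 in the CD31+CD45+ library. Every injured FAP library exceeded every other library. Pgk1 was higher by 2.16 on the log2 scale (SE 0.10, limma adjusted p 2.96e-07) against FAP and 1.60 (SE 0.09, limma adjusted p 2.68e-07) against ASC. In ASC against FAP its change of 0.57 fell just under the fold threshold and passed it without ASC 1 (0.59) or ASC 3 (0.60) and with DESeq2 (0.58). Eno1, the widely expressed enolase, had 2147, 3153 and 1995 in ASC, 2852 and 2790.4 in FAP, 9908, 9955 and 9713 in injured FAP and 4711 in the CD31+CD45+ library. ASC and FAP overlapped and injured FAP lay above both, by 2.05 (SE 0.15, limma adjusted p 1.07e-06) against ASC and 1.81 (SE 0.17, limma adjusted p 7.87e-06) against FAP. Eno1 was not called in ASC against FAP, at -0.24, and passed the threshold there under quantile normalisation (-0.60) and equal totals (-0.81). Pkm, the gene of muscle-type pyruvate kinase, had 8328, 8755 and 7055 in ASC, 7648 and 6999 in FAP, 27454, 27765 and 27224 in injured FAP and 7489 in the CD31+CD45+ library. ASC, FAP and the CD31+CD45+ library overlapped, and injured FAP stood above them by 1.91 (SE 0.11, limma adjusted p 7.27e-07) against FAP and 1.78 (SE 0.10, limma adjusted p 2.49e-07) against ASC. The table gives 1 value per gene, so the M1 and M2 forms of Pkm were not told apart.

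Eno2, the neuron-type enolase, was lower where Eno1 was higher in injured FAP against FAP, with 389.9, 326 and 287 in ASC, 639 and 612 in FAP, 262, 233 and 232 in injured FAP and 40.8 in the CD31+CD45+ library. FAP was highest without overlap, and Eno2 was lower in ASC, at -0.91 (SE 0.15, limma adjusted p 0.000471), and in injured FAP, at -1.37 (SE 0.15, limma adjusted p 2.51e-05). In injured FAP against ASC its change of -0.45 was not called, and it was -0.60 under quantile normalisation. Eno3, the muscle-type enolase, had 79.0, 72.5 and 90.4 in ASC, 119 and 152 in FAP, 94.9, 96.1 and 99.9 in injured FAP and 219.7 in the CD31+CD45+ library. It was called lower in ASC than in FAP, at -0.74, but not without FAP 2 (-0.56) or under quantile normalisation (-0.33), and in injured FAP against FAP it was called only without FAP 1, at -0.65. Under equal totals it was called higher in injured FAP than in ASC, at 0.96. Gapdh, which makes NADH, was higher in injured FAP (2565 to 2644) than in FAP (988 and 1046) by 1.35 and than in ASC (1119.8 to 1328) by 1.13. Pgam1, the phosphoglycerate mutase of most tissues, had 1383 to 1731 in ASC, 842 and 845 in FAP and 2299.7 to 2512 in injured FAP and was called in every comparison, at 0.87, 1.53 and 0.66. The last call was lost without ASC 3 (0.58), and the first under equal totals (0.30). Pgam2, the mutase of muscle, was at 0 in all 3 ASC libraries, had 19.97 and 13.2 in FAP, 3.92, 3.87 and 1.53 in injured FAP and 116 in the CD31+CD45+ library. Against a floor of 3 reads in the ASC library where a read is worth most (3.95), which covers counting error only, it was at least 4.19-fold higher in FAP and at least 29.4-fold higher in the CD31+CD45+ library. Pgam2 and Eno3 shared the order of the muscle fibre genes given above, with the CD31+CD45+ library highest and FAP next. Single markers of other cell types had that order too, as given above. The part of fibre RNA or of other cells' RNA in the levels of Pgam2 and Eno3 was not tested.

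**Figure D4:**
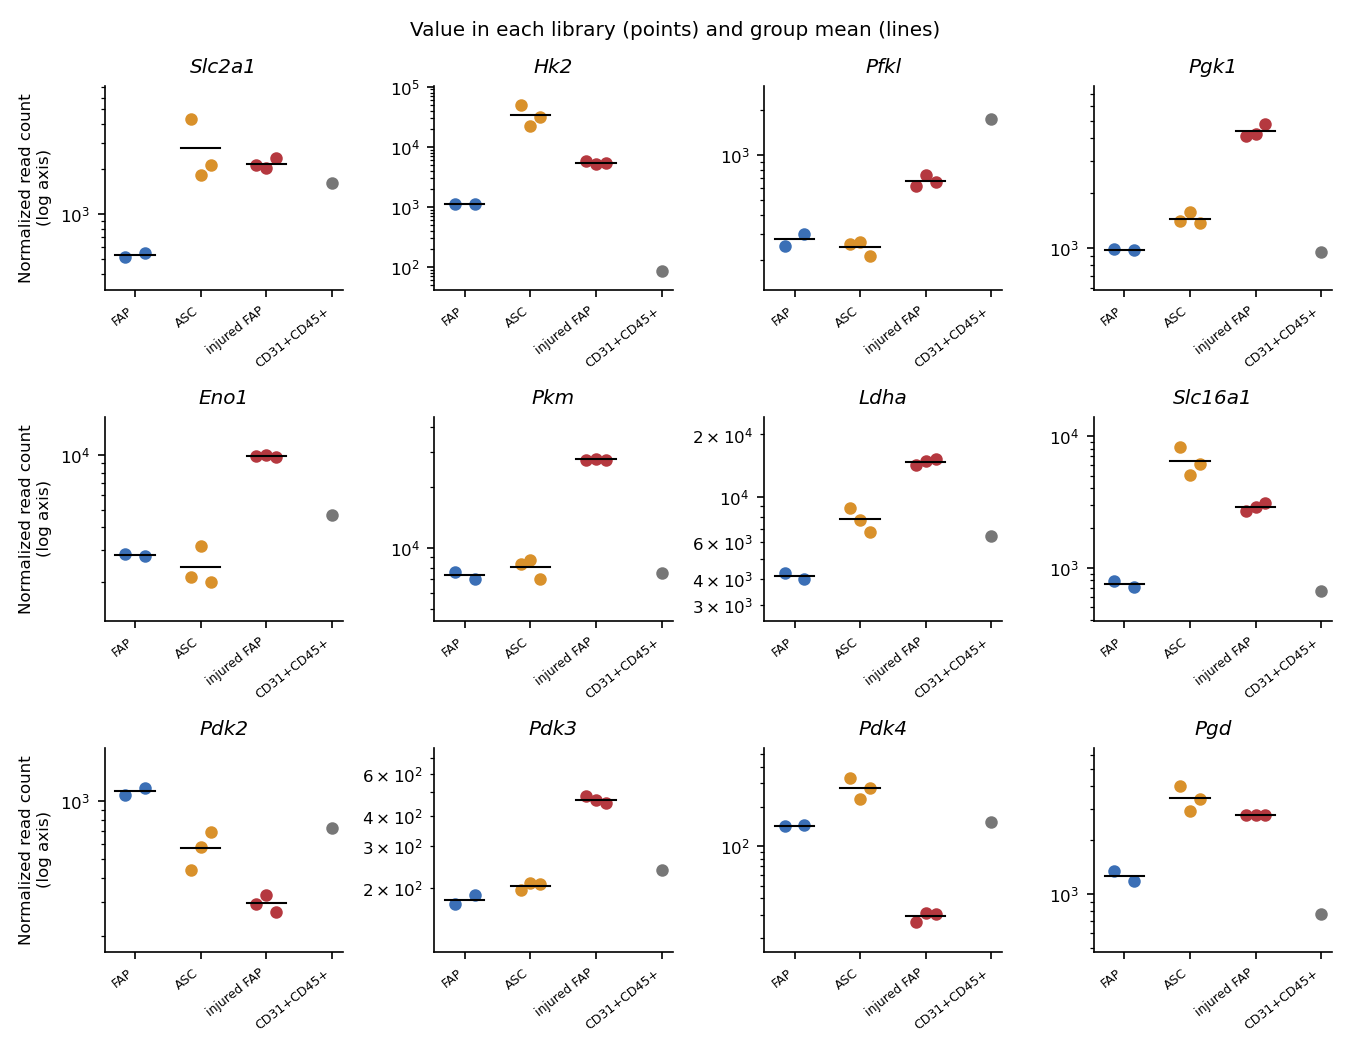
Points give the normalised read count (log axis) of 12 members in each library and lines the group mean. Pgk1, Eno1, Pkm, Ldha and Pdk3 are highest in the 3 injured FAP libraries, and Hk2 and Slc16a1 in the 3 ASC libraries.

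Lactate is made by LDH and carried out of the cell by monocarboxylate transporters, and 3 of these 4 members were higher and 1 lower in injured FAP than in FAP, while 2 were higher and 0 lower in ASC than in FAP. Against ASC, injured FAP had 1 higher and 1 lower. With equal totals the counts were 3 and 1 in injured FAP against FAP, 1 and 1 in ASC against FAP, and 2 and 0 in injured FAP against ASC. Slc16a1, the gene of MCT1, had values of 8215, 5028 and 6115 in ASC, 787 and 718 in FAP, 2695, 2915.5 and 3109 in injured FAP and 670.1 in the CD31+CD45+ library. The 3 groups did not overlap, with ASC highest and injured FAP between ASC and FAP. The log2 fold change was 3.07 (SE 0.17, limma adjusted p 4.19e-07) in ASC against FAP, 1.95 (SE 0.17, limma adjusted p 6.41e-06) in injured FAP against FAP and -1.12 (SE 0.16, limma adjusted p 0.000105) in injured FAP against ASC, of which the last was lost under equal totals at -0.42. Slc16a3, the gene of the export-type transporter MCT4, had 211, 87.2 and 127 in ASC, 78.9 and 88.4 in FAP, 141, 246 and 229 in injured FAP and 430.0 in the CD31+CD45+ library. ASC overlapped both other groups, and the only call was in injured FAP against FAP, at 1.25. It was lost on the adjusted p without FAP 1, where the change was 1.17. In ASC against FAP it was called without ASC 2 (0.96) and under quantile normalisation (1.13), and in injured FAP against ASC without ASC 1 (0.92), without injured FAP 1 (0.84) and under equal totals (1.28). Ldha, the subunit that favours lactate, had 8828, 7721 and 6726 in ASC, 4259 and 4013 in FAP, 14163, 14850.3 and 15161 in injured FAP and 6483 in the CD31+CD45+ library. It was called in every comparison, at 0.90 in ASC against FAP, 1.83 in injured FAP against FAP and 0.93 in injured FAP against ASC, and the first was lost under quantile normalisation (0.32) and equal totals (0.33). Ldhb, the heart-type subunit, had 134, 145 and 178 in ASC, 248 and 200.4 in FAP, 111, 118 and 101 in injured FAP and 282 in the CD31+CD45+ library. Ldhb was lower in injured FAP than in FAP, at -1.02, the opposite direction to Ldha. In ASC against FAP the change of Ldhb, -0.56, was called without ASC 3 (-0.67), without FAP 2 (-0.71), under equal totals (-1.12), under a common 75th percentile (-0.72), with the replicate block (-0.59) and with edgeR (-0.60). Against ASC, Ldhb was called lower in injured FAP under quantile normalisation, at -0.65.

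The pyruvate dehydrogenase switch had 4 kinase genes that did not move together. Pdk4, the kinase gene induced by fasting and fatty acids, had values of 328, 227 and 275 in ASC, 143 and 144 in FAP, 26.7, 31.0 and 30.5 in injured FAP and 154 in the CD31+CD45+ library. The groups did not overlap, ASC being highest and injured FAP lowest. On the log2 scale Pdk4 differed by 0.93 (SE 0.20, limma adjusted p 0.00283) in ASC against FAP, -2.25 (SE 0.20, limma adjusted p 7.19e-06) in injured FAP against FAP and -3.18 (SE 0.18, limma adjusted p 2.45e-07) in injured FAP against ASC, and the first was lost under equal totals at 0.36. Pdk2, the widely expressed kinase gene, had 439, 579.9 and 693 in ASC, 1078 and 1168 in FAP, 293, 327 and 268 in injured FAP and 725 in the CD31+CD45+ library. FAP was highest and injured FAP lowest without overlap, and Pdk2 fell by 1.00 (SE 0.18, limma adjusted p 0.000830) in ASC against FAP, by 1.92 (SE 0.18, limma adjusted p 8.69e-06) in injured FAP against FAP and by 0.92 (SE 0.16, limma adjusted p 0.000511) in injured FAP against ASC. The last of these was -0.23 and not called under equal totals. Pdk3 rose in injured FAP, where Pdk2 and Pdk4 fell, with 195, 208 and 207 in ASC, 170.2 and 185 in FAP, 486, 464 and 451 in injured FAP and 237 in the CD31+CD45+ library. It was higher in injured FAP than in FAP by 1.39 and than in ASC by 1.19. Pdk1, a hypoxia-responsive kinase gene, had 119.9 to 164 in ASC, 165 and 176 in FAP, 111 to 157 in injured FAP and 202 in the CD31+CD45+ library and was called in no comparison, although under equal totals it was lower in ASC than in FAP, at -0.78. Pdha1, the catalytic subunit that the kinases phosphorylate, had 2774 to 2881 in ASC, 1858 and 1829.8 in FAP and 2677 to 3143 in injured FAP. It was called higher than FAP in ASC (0.61) and in injured FAP (0.63). The first call was lost under quantile normalisation (0.27), equal totals (0.05), a common 75th percentile (0.45), the replicate block (0.57) and with edgeR (0.57), and the latter without injured FAP 3 (0.56) and under quantile normalisation (0.54). Under equal totals it was called higher in injured FAP than in ASC, at 0.72. For these 5 members the counts were 2 higher and 1 lower in ASC against FAP, 2 and 2 in injured FAP against FAP, and 1 and 2 in injured FAP against ASC. Equal totals made them 0 and 2, 2 and 2, and 2 and 1.

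Of the 5 pentose phosphate members, G6pdx, Pgd and Tkt were called higher and 0 lower than FAP in both ASC and injured FAP, and Tkt alone was called in injured FAP against ASC. With equal totals 1 was higher in ASC than in FAP, 4 in injured FAP than in FAP and 3 in injured FAP than in ASC, with 0 lower in each. Pgd encodes the enzyme of the second NADPH-making step and had values of 4034, 2904 and 3419.6 in ASC, 1346 and 1175 in FAP, 2767, 2754 and 2759.5 in injured FAP and 771 in the CD31+CD45+ library. FAP lay below ASC and injured FAP without overlap, and ASC lay above injured FAP in each library. On the log2 scale Pgd was higher by 1.44 (SE 0.13, limma adjusted p 9.05e-06) in ASC against FAP and 1.13 (SE 0.13, limma adjusted p 3.91e-05) in injured FAP against FAP, and -0.31 in injured FAP against ASC was not called. G6pdx, the first and rate-setting dehydrogenase, had 2706, 3133 and 2935 in ASC, 1492 and 1435 in FAP, 2317, 2441 and 2229 in injured FAP and 865 in the CD31+CD45+ library. It was called higher than FAP in ASC, at 1.00, and in injured FAP, at 0.67, and the former was lost under equal totals at 0.43. Tkt, the transketolase that links the pathway back to glycolysis, had 3563 to 4296 in ASC, 2555 and 2391 in FAP and 5932 to 6487 in injured FAP and was called in every comparison, at 0.65, 1.31 and 0.66. Its call in ASC against FAP was lost under quantile normalisation (0.25), equal totals (0.09) and a common 75th percentile (0.49). Taldo1 (1045 to 1483 over the 8 libraries) and Rpia (319 to 478), which rearrange sugar phosphates, were called in no comparison. Rpia in injured FAP against FAP was 0.57 and passed the fold threshold under equal totals (0.70), with the replicate block (0.58), with edgeR (0.61) and with DESeq2 (0.59). Under the deposited scaling the values of both dehydrogenases were highest in ASC and those of Tkt in injured FAP, but neither dehydrogenase was called between ASC and injured FAP, and under equal totals the sign turned for G6pdx (0.37) and Pgd (0.39). Members called in no comparison numbered 6, namely Hk1, Pfkm, Aldoa, Pdk1, Taldo1 and Rpia. Under equal totals Hk1, Pfkm, Taldo1 and Rpia were called higher in injured FAP than in ASC, at 1.06, 1.20, 0.90 and 0.98, and Pfkm, Pfkl and Tpi1 lower in ASC than in FAP, at -0.92, -0.74 and -0.66, in addition to Hk1, Eno1, Ldhb and Pdk1 as given above. Further members called higher by that scaling in injured FAP against ASC were Slc2a3 (0.89), Pfkfb3 (1.26), Aldoa (0.76), Eno3 (0.96), Slc16a3 (1.28) and Pdha1 (0.72), which makes 10 in all, and Pfkm was also called there under a common 75th percentile (0.62) and with edgeR (0.59), as was Pfkfb3 (0.68 and 0.64).

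Isozyme make-up was compared as each gene's share of its family's summed level per kb, which does not depend on scaling between libraries, does depend on the exon lengths used, and was not tested. Hk2 made up 97.6%, 94.5% and 96.2% of hexokinase in ASC, 40.2% and 40.03% in FAP, 77.2%, 75.5% and 78.8% in injured FAP and 2.66% in the CD31+CD45+ library. The 4 groups were separate, and the CD31+CD45+ library was nearly all Hk1. Pfkp was the largest share of phosphofructokinase in ASC, at 55.9% to 57.7%, where Pfkm made up 49.4% and 51.0% in FAP and 49.5% to 50.3% in injured FAP. The rank of Pfkm and Pfkp turns on the exon lengths used (3340 and 13401 bases), since the value of Pfkp exceeded that of Pfkm in all 8 stromal libraries. Pfkl made up 10.99% and 12.3% in FAP and 24.8% to 27.1% in injured FAP, while Pfkp made up 39.6% and 36.7% in FAP and 22.9% to 25.7% in injured FAP. Of the PFKFB pair, Pfkfb3 made up 83.3% to 86.9% in injured FAP, 60.1% and 59.8% in FAP and 42.5% to 52.4% in ASC. Eno1 made up 94.4% to 94.6% of enolase in injured FAP, 72.2% and 70.4% in FAP and 75.7% to 84.1% in ASC. Among the PDK genes, Pdk2 was the main one in FAP (72.6% and 73.1%) and Pdk3 in injured FAP (57.8% to 62.3%), where Pdk3 in FAP was 14.2% and 14.3%. Pdk2 also led in ASC, at 42.9% to 54.9%, with Pdk4 at 18.4% to 28.9%. GLUT4 (Slc2a4) made up 21.4% and 20.2% of the 3 glucose transporters in FAP and 19.8% in the CD31+CD45+ library, and at most 1.25% elsewhere. Ldha was at least 89.1% of LDH in every library, with Ldhb at 10.9% and 9.52% in FAP and 1.39% to 1.64% in injured FAP. Slc16a1 exceeded Slc16a3 in every library, with the smallest share, 65.2%, in the CD31+CD45+ library. Aldoa was at least 99.9% of aldolase in each library, and Pgam1 at least 94.7% of the mutases except in the CD31+CD45+ library, where it was 66.4%.

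**Figure D5:**
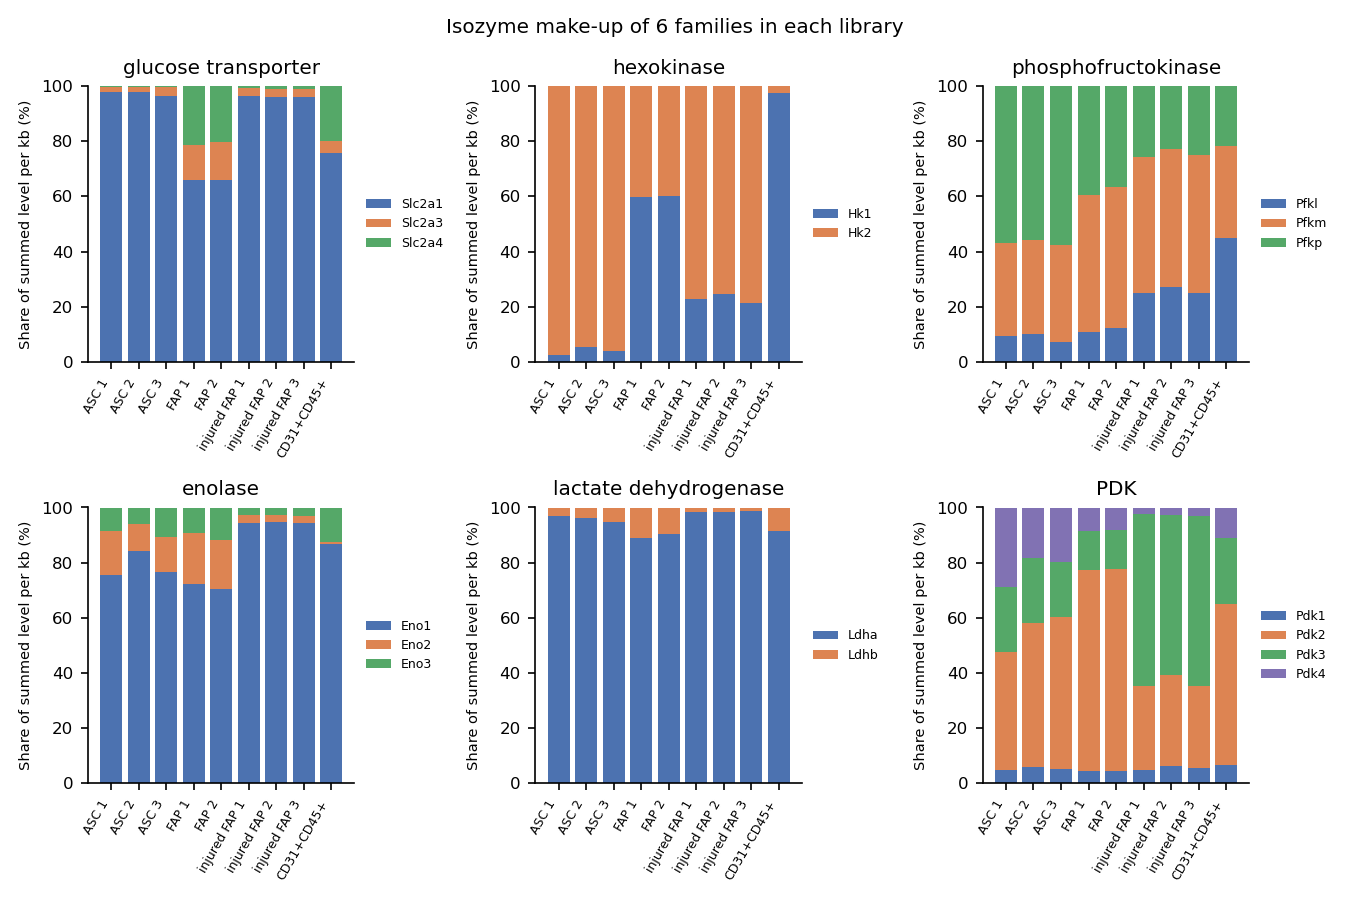
Stacked bars give each isozyme's percentage of the summed level per kb of its family in each of the 9 libraries. Hexokinase is almost all Hk2 in ASC, mixed in FAP and almost all Hk1 in the CD31+CD45+ library, and Pdk3 in place of Pdk2 is the largest PDK share in injured FAP.

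The single CD31+CD45+ library was set against the mean of injured FAP with no test. Of the 34 members tested elsewhere, 25 lay more than 0.58 from that mean on the log2 scale, 10 above and 15 below, where 66.7% of all genes did so, 32.1% above and 34.6% below. The median difference was -0.46 for the members and -0.04 for all genes. Hk2 differed by -5.95, the largest difference of a tested member, and Slc2a4 by 4.14. In the CD31+CD45+ library 8 members lay below each of the other 8 libraries, namely Hk2, Pgk1, Pgam1, Eno2, Slc16a1, Pdha1, G6pdx and Pgd. Pgk1 was among them by 951 against 964 in FAP 2, and Hk2 rested on 55 reads. How many of all genes lay below each of the other 8 libraries was not counted, so these 8 members have no background share. The members past 0.58 above the injured FAP mean were Slc2a4, Hk1, Pfkl, Pfkfb3, Eno3, Ldhb, Slc16a3, Pdk1, Pdk2 and Pdk4, so that Hk1 and Hk2, Eno3 and Eno2, and Ldhb and Ldha stood on opposite sides.

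Other genes of the pathway were taken from a list of 41, of which 34 were tested. ASC had 5 higher and 3 lower than FAP (median log2 fold change 0.19), in injured FAP against FAP 13 were higher and 8 lower (0.44), and in injured FAP against ASC 7 were higher and 9 lower (0.27). The shares called were 23.5%, 61.8% and 47.1%, against 47.2%, 52.6% and 50.8% of all genes tested. Slc16a7, the gene of the high-affinity pyruvate and lactate transporter MCT2, had 252, 257 and 365 in ASC, 44.7 and 63.0 in FAP and 23.5, 33.3 and 28.2 in injured FAP. It was higher in ASC than in FAP by 2.41 and lower in injured FAP than in ASC, at -3.31, an order like that of Slc16a1 in ASC and unlike it in injured FAP. Galm, which prepares galactose and glucose for metabolism, had 514 to 743 in ASC, 130.3 and 140.2 in FAP and 148 to 169 in injured FAP and was lower in injured FAP than in ASC at -1.97, and Pgm2, a phosphoglucomutase, was higher in ASC than in FAP by 1.66. Ldhd, the D-lactate dehydrogenase, was lower in ASC than in FAP, at -2.21, with values of at most 32.9 in the 8 libraries. Slc2a6, a further glucose transporter gene, had 67.5, 75.9 and 38.9 in injured FAP and at most 13.2 in the other stromal libraries, and was higher in injured FAP by 2.61 against FAP and 3.21 against ASC. Pfkfb1 was also higher in injured FAP than in FAP, by 1.83, and Gpd1, which draws triose phosphate into glycerol, was lower at -1.66. Shpk, a kinase that feeds the pentose phosphate pathway, was lower in injured FAP at -1.60 against FAP and -1.44 against ASC.

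A list of 20 hypoxia-type targets outside the pathway, 18 of them tested, is given for comparison. ASC had 6 higher and 3 lower than FAP (median 0.26). Injured FAP had 5 higher and 6 lower than FAP (-0.29), and 3 higher and 7 lower than ASC (-0.44). In the same order 9, 11 and 10 of the 18 were called, against 47.2%, 52.6% and 50.8% of all genes tested. Vegfa had 19739, 10908 and 13243 in ASC, 2883 and 3294 in FAP and 3276, 3030.2 and 3347 in injured FAP, so that ASC was high and the other groups overlapped. It was higher in ASC than in FAP by 2.202 and lower in injured FAP than in ASC at -2.14. Ndrg1 was likewise highest in ASC, at 1.74 and -2.41, and Ero1a was higher in ASC than in FAP by 1.23. Ddit4 was lower in ASC than in FAP at -1.05 and higher in injured FAP than in ASC by 1.59. Anln, which also serves cell division, was higher in injured FAP by 4.89 against FAP and 4.50 against ASC. Egln3 and Car12 were lower in injured FAP than in FAP, at -1.73 and -1.02, and Ak4 was higher by 0.92.

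Of 22 regulators of glycolysis, all tested, 4 were higher and 7 lower in ASC than in FAP (median -0.39). In injured FAP 4 were higher and 13 lower than in FAP (-0.77), and 2 higher and 12 lower than in ASC (-0.64). In the same order 11, 17 and 14 of the 22 were called, against 47.2%, 52.6% and 50.8% of all genes tested. Hif1a, the oxygen-regulated factor, had 8381, 6121 and 6317 in ASC, 2361 and 2218 in FAP and 8699.9, 10318 and 9345 in injured FAP, and was higher than FAP by 1.59 in ASC and by 2.04 in injured FAP. Myc had 35722, 25500 and 31148 in ASC, 6473 and 5426 in FAP and 12853, 11025 and 9819 in injured FAP, with ASC above FAP by 2.36, an order shared with Hk2 and Slc16a1. Nfe2l2, which drives NADPH-making genes, was higher in ASC than in FAP by 1.91, and Ppargc1a was lower at -2.67. Txnip, an inhibitor of glucose uptake, had 4521, 6211 and 5708 in ASC, 13813 and 13343 in FAP and 1689, 1496 and 1844 in injured FAP, and fell in injured FAP by 3.02 against FAP and by 1.70 against ASC. Mlxipl, the glucose-sensing factor that controls Txnip, was lower in injured FAP, at -4.01 against FAP and -3.56 against ASC, with values of 3.05 to 3.92. Hif3a (-3.14 and -1.78) and Klf15 (-2.93 and -2.52) were lower in injured FAP in the same comparisons. How these regulators bear on the members was not tested.

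Markers of division and of tissue dissociation also differed between the groups. The summed value of 12 cell division genes was 28805 to 30555 in injured FAP and 551 to 1363 in ASC and FAP, all 12 were higher in injured FAP than in FAP and ASC, and 0 were called in ASC against FAP. The summed value of 12 immediate early and stress genes was 705861 to 936222 in ASC, 747292 and 665901 in FAP and 265705 to 305844 in injured FAP. Of these 12, 4 were higher and 5 lower in ASC than in FAP, and 10 and 8 were lower in injured FAP than in FAP and ASC. The part of dividing cells or of the stress of dissociation in the members' levels was not tested. Of the 10 mesenchymal markers, 1 was higher and 9 lower in injured FAP than in ASC, so that several defining genes of these cells were themselves lower in injured FAP. Among 11 leukocyte genes tested, 5 were higher in ASC and 8 in injured FAP than FAP, where 11 of the 15 listed, Ptprc among them, were at 0 in both FAP libraries and Cd68 was the most abundant. Of 13 endothelial genes tested, 4 were higher and 8 lower in ASC than in FAP, and 3 higher and 6 lower in injured FAP than in FAP. The 3 called higher in injured FAP, Plvap, Emcn and Cldn5, were at 0 in both FAP libraries, where Cdh5 had 1438 and 686. For 7 Schwann cell genes 5 were lower in ASC and 4 in injured FAP than in FAP, for 6 adipocyte genes tested 3 were higher and 2 lower in ASC and 0 higher and 3 lower in injured FAP, and for 5 satellite cell genes tested 1 was higher and 4 lower in ASC and 1 higher and 2 lower in injured FAP. None of 6 erythroid genes reached the level for testing. Of all genes tested, 47.2%, 52.6% and 50.8% were called in ASC against FAP, injured FAP against FAP and injured FAP against ASC.

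Several members share sequence with other genes, and their values are uncertain to that extent. By exact stretches of 75 bases in GENCODE M21 transcripts, Pgk1 shared 52.8% of its stretches with other genes, mostly Pgk1-rs7, Pgam1 34.9% with Pgam1-ps2, Eno1 23.0% mostly with Eno1b, Gapdh 22.6% with up to 121 genes, Pkm 17.8%, Ldhb 12.6%, Gpi1 10.8%, Pfkm 8.13%, Ldha 2.69%, Rpia 2.02% and Tpi1 1.35%. For Gpi1, 6.71% were with Gm26762, which overlaps it on the opposite strand. Opposite-strand overlaps were also found for Pdha1 (10.6% of stretches, with Map3k15), Pfkp (4.87%, with Pitrm1) and G6pdx (8.96% with Ikbkg, of 10.6% in all, which include the copy G6pd2). The strand setting of the counting is not stated, so reads from these overlaps cannot be told apart. Hk2, Slc2a4, Pfkl, Pfkfb4, Eno2, Slc16a1, Pdk2, Pdk3, Pgd and Tkt shared 0 such stretches with any other gene.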

How the data were processed

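RNA was measured in 9 libraries, and 2 further columns of the table belong to no sample of the series and were not used. The values are a signal that the authors deposited as normalised counts: per the sample records and the authors' reporting summary, reads were checked with FastQC 0.11.9, aligned to mm10 with HISAT2 2.2.1, counted per gene with Subread 2.0.1 and analysed with DESeq2 1.34.0, while how the deposited values were normalised is not stated. Every value was a whole multiple of 1 step per library within a tolerance of 0.001 (100% of values), which gave the reads, the size factors and the depths. Genes with a mean of at least 10 over the 8 stromal libraries (13601) were fitted as log2 of the value plus 1 with limma 3.58.1 in R 4.3.3 (trended prior variance, 1 mean per group, 8 libraries in 1 fit), with Benjamini-Hochberg adjustment over all of them. Calls required a log2 fold change above 0.58 or below -0.58 at an adjusted p under 0.05. The p-values rest on a spread between libraries that was pooled over the groups and moderated over all genes. This gave 5 residual degrees of freedom, and 10.13 with the prior. They may not refer to the spread between animals, as stated above. The scripts were tested on simulated data.

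Alternatives were pseudocounts of 0.5 and 8, no filter or a mean of at least 50, quantile, equal-total and 75th percentile scaling, unadjusted p, fits of the compared groups alone, a replicate block, each of 8 libraries left out, and edgeR 4.0.16 and DESeq2 1.42.0 on the recovered reads. edgeR called 6450, 7303 and 7000 genes in ASC against FAP, injured FAP against FAP and injured FAP against ASC, DESeq2 called 6412, 7227 and 6865, and limma 6416, 7153 and 6909. The members and lists were chosen with earlier results of these data known. Members among the 4 largest called rises or falls of a comparison got full statistics (15 members), isozymes are described beside them, and up to 4 called genes of each other list are named per comparison. Exon lengths and shared stretches came from GENCODE M21 (24918 genes of the table matched) and promoters from RefSeq (GRCm38.p6).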

Additional observations from a re-analysis of the deposited data

Results flagged for a closer look

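In the CD31+CD45+ library, which is in no test, 6 members lay above each of the other 8 libraries by more than 0.58 on the log2 scale. They were Hk1 at 4517 (highest of the other libraries 2407), Pfkfb3 at 2123 (873), Pfkl at 1725 (736), Slc16a3 at 430.0 (246), Slc2a4 at 419 (167) and Pgam2 at 116 (19.97). These values rest on 1 library, so the difference has no replicate check and was not tested. How many of all genes lay above the other 8 libraries by that margin was not counted, so the 6 members have no background share. Of all genes tested, 66.7% lay more than 0.58 from the injured FAP mean in this library.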

How the results depend on the processing

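Over the alternatives there were 2040 values of members tested, of which 1924 kept direction and side of the threshold, 41 lost a call, 47 gained one and 28 changed sign. None of the 28 was called before or after the change, and 40 of 61 called values kept their call under every alternative. Leaving out 1 library gave 16 to 19 members called in ASC against FAP (12 to 13 higher, 4 to 6 lower), 24 to 26 in injured FAP against FAP (17 to 19 higher, 6 to 7 lower) and 16 to 20 in injured FAP against ASC (10 to 14 higher, 6 lower each time), and 9 called values lost their call. A lone FAP library left by this was assumed to vary like the other groups. Other alternatives gave 14 to 18, 23 to 27 and 18 to 25 members called. Equal totals gave 4 higher and 12 lower in ASC against FAP, and 22 higher and 3 lower in injured FAP against ASC, where 12, 5, 12 and 6 were found before. The sign changes under equal totals were, in ASC against FAP, Gpi1 -0.0944, Pfkfb3 -0.49, Aldoa -0.32, Gapdh -0.34, Pkm -0.44, Pdk3 -0.37, Taldo1 -0.37 and Rpia -0.28, in injured FAP against FAP, Hk1 0.0584, and in injured FAP against ASC, Slc2a1 0.46, Eno2 0.24, Ldhb 0.23, Pdk1 0.52, G6pdx 0.37 and Pgd 0.39. Those under quantile normalisation were Gpi1 -0.0938, Aldoa -0.41, Pkm -0.51 and Pdk1 0.13 in ASC against FAP, and Slc2a1 0.000880 and Slc2a3 -0.00766 in injured FAP against ASC. A common 75th percentile gave Pfkfb3 -0.0939 and Pkm -0.0357 in ASC against FAP. Leaving out a library changed the sign of Pfkfb3 in ASC against FAP, at -0.0762 without ASC 1 and -0.0288 without FAP 1, where it reached 0.19 without ASC 2. In injured FAP against ASC it changed that of Slc2a1 without ASC 1 (0.14, against -0.48 without ASC 2), of Slc2a3 without ASC 2 (-0.12) and of Pdha1 without injured FAP 3 (-0.0492, against 0.0665 without injured FAP 1). The cause was not tested. Libraries with the same replicate number had correlations of their deviations of -0.05 to 0.04, and those with other numbers -0.12 to 0.12. With so few libraries per group the deviations constrain each other, so these values cannot decide whether the samples were paired. With the replicate block 17, 27 and 18 members were called, with Ldhb in ASC against FAP at -0.59 and Rpia in injured FAP against FAP at 0.58 gaining a call and Pdha1 in ASC against FAP at 0.57 losing it. The lowest values, such as those of Aldoc and Pgam2, rest on few reads, since 3 reads are worth up to 3.95 in the 8 stromal libraries and 4.71 in the CD31+CD45+ library.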
